A study of Mus musculus with 6 samples.

Results

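The 40 genes described here encode the enzymes that carry glucose carbon through glycolysis (18 genes, with the regulator Pfkfb3), the pentose phosphate pathway (7 genes), pyruvate dehydrogenase and the tricarboxylic acid (TCA) cycle (13 genes), and the cytosolic and mitochondrial malic enzymes (2 genes). They were picked by name, as enzymes of these routes, from the 55536 Ensembl gene IDs of the deposited tables; the rule uses no measured value, though earlier results of these data were known when it was made. Bulk RNA sequencing covered 6 libraries of the mouse macrophage-like line RAW264.7, an immortalised line that turns towards osteoclasts, the cells that resorb bone, when it is given the cytokine RANKL. In 3 libraries the cells had received 50 ng/mL RANKL together with 4 µM etelcalcetide, a peptide activator of the calcium-sensing receptor, and in 3 the same dose of RANKL alone. All 6 libraries therefore share RANKL, and cells without it were not analysed here. Exposure lasted 5 days according to the design text, but in each group the labels of replicates 1, 2 and 3 read 5, 6 and 7 days. Whether the replicates were separate cultures is not stated in the labels. The p-values therefore reflect only how these samples vary, which may be technical.

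Glycolysis splits glucose into pyruvate in the cytosol, and lactate dehydrogenase can turn that pyruvate into lactate. The pentose phosphate pathway draws on the same glucose 6-phosphate to make NADPH, the reducing power of lipid synthesis and of antioxidant defence, and ribose for nucleotides. Pyruvate dehydrogenase feeds the remaining carbon as acetyl-CoA into the TCA cycle in mitochondria, and malic enzymes return malate to pyruvate, the cytosolic form with NADPH as a product. Macrophages that are activated by inflammatory signals are known for high glycolysis and a rearranged TCA cycle, and osteoclasts for many mitochondria.

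The files gave between 13742913 and 16264432 gene-assigned reads per library. Values are FPKM, fragments scaled to exon length and library size, divided by a scaling factor of each library (1.01 to 1.04 with etelcalcetide, 0.967 to 0.978 with RANKL), and are called scaled FPKM. Of all 11120 genes tested, 53% passed the test, limma with p-values adjusted by the Benjamini-Hochberg method and a threshold of 0.05. Of all genes 26% were called higher in the etelcalcetide libraries and 27% lower, 2896 and 2997 genes. Scaling by library totals only, these counts were 3558 and 2272. Defining markers of the macrophage lineage were present in every library. The summed level of 8 macrophage markers was 2769 to 2861 scaled FPKM with etelcalcetide and 2602 to 2750 with RANKL, and 3 of the 7 tested were higher. Lyz2, which made up most of both sums, had 1780 ± 52.7 scaled FPKM with etelcalcetide and 1796 ± 113 with RANKL. Lyz2, Csf1r, Cd68 and Ptprc did not pass (limma adjusted p = 0.906, 0.111, 0.159 and 0.486). The 9 osteoclast markers summed to 176 to 194 scaled FPKM with etelcalcetide and 357 to 499 with RANKL, and 5 of the 8 tested were lower. Mmp9, which made up most of the etelcalcetide sum, had 158 ± 9.18 scaled FPKM with etelcalcetide and 163 ± 22.6 with RANKL. Mmp9, Dcstamp and Itgb3 did not pass (limma adjusted p = 0.803, 0.995 and 0.402). Acp5 and Ctsk, enzymes of resorbing osteoclasts, had 3.83 ± 0.714 and 0.186 ± 0.0570 scaled FPKM with etelcalcetide, against 119 ± 22.6 and 97.1 ± 24.0 with RANKL, and the macrophage antigen Adgre1 (F4/80) had 68.1 ± 2.22 with etelcalcetide and 24.1 ± 1.25 with RANKL. Of 6 dendritic cell markers 2 of the 3 tested were higher, with sums of 22.1 to 29.7 scaled FPKM with etelcalcetide and 7.40 to 10.3 with RANKL. Ccr7 made up most of the etelcalcetide sum, with 15.6 ± 3.31 scaled FPKM with etelcalcetide and 0.139 ± 0.108 with RANKL. Itgax did not pass (limma adjusted p = 0.516). Of 8 fibroblast and osteoblast markers, which summed to 0.893 to 1.14 scaled FPKM with etelcalcetide and 1.49 to 1.73 with RANKL, the 1 tested was lower, and Col1a2 and Col3a1 were at 0. Erythroid markers were at 0 in all libraries, as were Cd3e and Ncr1 among lymphocyte markers. The groups thus differed in markers of cell state, and the part of that difference in the results on enzymes was not tested. In bulk samples, fewer cells of a type and less RNA per cell cannot be told apart.

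Calls were made in each of the routes. Of the 39 enzyme genes that could be tested, 10 were higher and 13 lower with etelcalcetide, which is 59% called against the 53% of all genes tested. The groups were fully separated for 11 members on the higher side and 13 on the lower side, as were 30.7% and 31.2% of all genes tested (61.9% in both directions). In glycolysis 5 genes were higher, 1 was lower and 11 did not pass. That is 35.3% called, below the 53% of all genes tested, and 29.4% higher, near the 26% of all genes. In the pentose phosphate pathway 3 were higher, 0 were lower and 4 did not pass (42.9% called). In pyruvate dehydrogenase and the TCA cycle 2 were higher, 10 were lower and 1 did not pass (92.3% called), and both malic enzymes were lower. The median log2 fold change was 0.03 for glycolysis, 0.11 for the pentose phosphate genes, -0.25 for pyruvate dehydrogenase and the TCA cycle and -1.45 for the malic enzymes, against -0.01 over all genes tested. Most differences were small. The median absolute log2 fold change was 0.23 for the members and 0.28 for all genes tested. Only Me1 moved by 2-fold or more, a size reached by 7.14% of all genes tested. Ldhb, the heart-type subunit of lactate dehydrogenase, was the gene that could not be tested, with 0 reads in all 6 libraries.

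**Figure D1:**
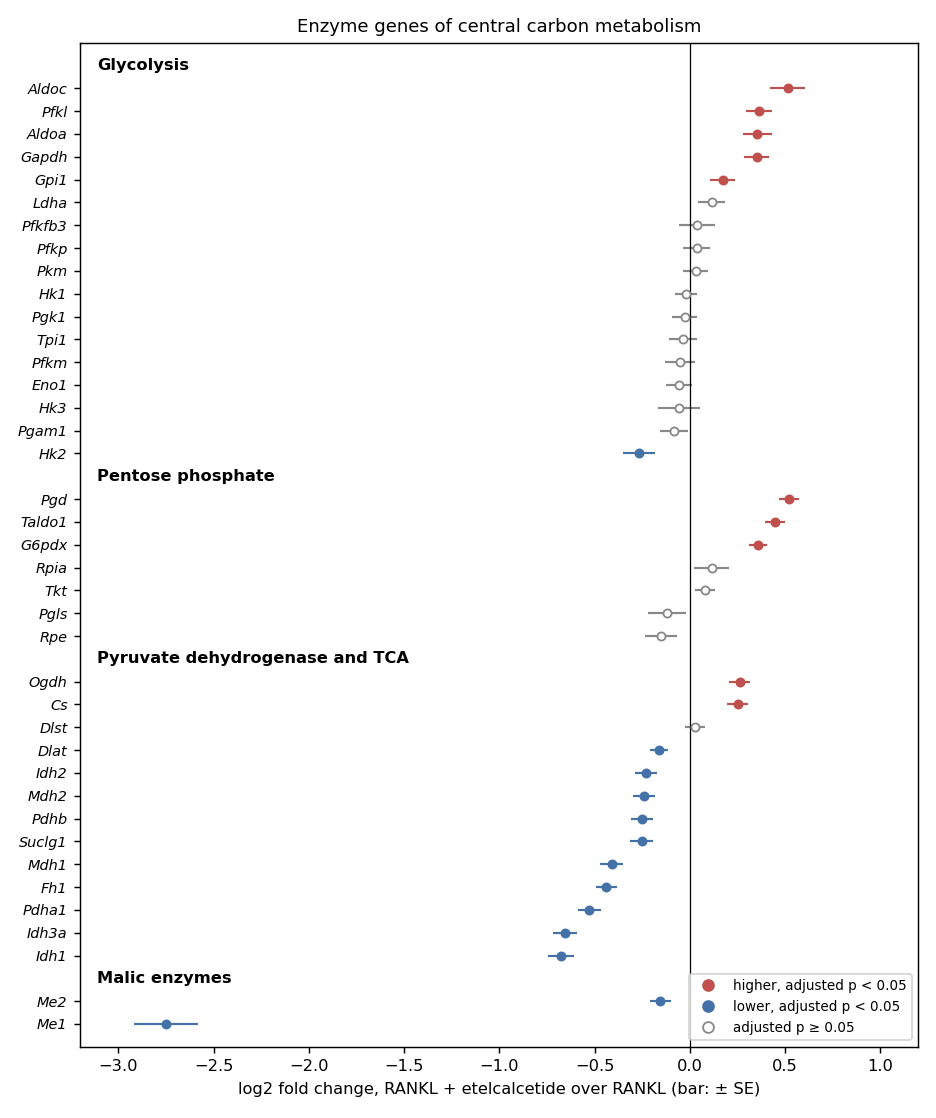
Log2 fold change of each tested enzyme gene, RANKL + etelcalcetide over RANKL, with SE bars, grouped by route; filled points passed the limma test. Points of the TCA group lie mostly left of 0, the pentose phosphate calls lie right of it, and Me1 stands apart at -2.75.

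Glycolysis accounted for most of the RNA of these routes. Its member genes took 2.80%, 2.79% and 2.84% of all reads in the etelcalcetide libraries, against 2.29%, 2.56% and 2.61% in the RANKL libraries. Read shares, here and below, are of library totals without the scaling factors. In scaled FPKM these genes summed to 7033, 7178 and 7107 with etelcalcetide and 6103, 6862 and 6937 with RANKL. The most abundant member was Pkm, the pyruvate kinase of macrophages and growing cells, with a mean of 1699 ± 8.41 scaled FPKM with etelcalcetide and 1665 ± 85.8 with RANKL (SD, n = 3 each). Pkm did not pass the test (log2 fold change 0.03, SE 0.0661, limma adjusted p = 0.721). Another annotated gene shares 15.3% of its exon length. The glycolysis genes that rose sit at the isomerase step, the commitment step, the aldolase step and the first oxidation. The call at the isomerase step, that of Gpi1, was marginal.

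The calls began at the top of the pathway with hexokinase, which traps glucose in the cell. Hk2, the inducible hexokinase bound to mitochondria (chromosome 6, 82725025 to 82774454), had 24.8, 23.4 and 20.1 scaled FPKM in etelcalcetide replicates 1 to 3, against 25.7, 28.0 and 28.3 in RANKL replicates 1 to 3. In scaled FPKM the groups did not overlap, but etelcalcetide replicate 1 came within a small distance of RANKL replicate 1. In the deposited FPKM they overlapped, with 25.6 in etelcalcetide replicate 1 and 25.0 in RANKL replicate 1. The fold change was -0.27 on the log2 scale (SE 0.0826, limma adjusted p = 0.0229). The call was lost without etelcalcetide replicate 3 (adjusted p = 0.0778), without RANKL replicate 2 (0.0699) or replicate 3 (0.0518), and with library totals (0.0772). Over all alternatives the adjusted p of Hk2 was 0.00735 to 0.0778. Hk1, the constitutive hexokinase, had 32.6 ± 0.385 scaled FPKM with etelcalcetide and 33.0 ± 1.91 with RANKL, and Hk3, the myeloid form, had 8.07 ± 1.04 with etelcalcetide and 8.39 ± 0.895 with RANKL. Both overlapped between the groups and did not pass. Gpi1, which interconverts glucose and fructose 6-phosphate, had 146, 151 and 149.6 scaled FPKM with etelcalcetide, against 119.9, 138 and 139 with RANKL. Its call was marginal (log2 fold change 0.17, limma adjusted p = 0.0495) and was lost on leaving out any single library other than RANKL replicate 3, with adjusted p of 0.08 without etelcalcetide replicate 1, 0.135 without replicate 2, 0.121 without replicate 3, 0.0968 without RANKL replicate 1 and 0.052 without replicate 2. All alternatives gave 0.00995 to 0.135. Gpi1 shares 11.5% of its exon length with other genes.

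Phosphofructokinase commits sugar phosphate to glycolysis. Pfkl, its liver-type subunit (chromosome 10, 77986947 to 78010083), had 59.4, 61.4 and 59.1 scaled FPKM in the etelcalcetide libraries and 41.9, 49.2 and 49.1 in the RANKL libraries. All etelcalcetide values lay above all RANKL values. Pfkl rose by 0.36 on the log2 scale (SE 0.0685, limma adjusted p = 0.00214). The platelet-type Pfkp had 23.9 ± 1.63 scaled FPKM with etelcalcetide and 23.3 ± 1.34 with RANKL, and the muscle-type Pfkm had 9.09 ± 0.690 with etelcalcetide and 9.42 ± 0.515 with RANKL. Pfkfb3, which makes the activator fructose 2,6-bisphosphate, had 7.70 ± 0.428 scaled FPKM with etelcalcetide and 7.52 ± 0.851 with RANKL. None of Pfkp, Pfkm and Pfkfb3 passed the limma test, with adjusted p of 0.697, 0.605 and 0.768.

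Aldolase cuts the 6-carbon sugar into triose phosphates. Aldoa, the main aldolase here (chromosome 7, 126795234 to 126800751), had 1000.4, 1019 and 1013 scaled FPKM with etelcalcetide, against 712, 811 and 856 with RANKL. The etelcalcetide libraries were close together and above each RANKL library. Aldoa rose by 0.35 on the log2 scale (SE 0.0746, limma adjusted p = 0.00378), and Aldoc, the brain-type aldolase at far lower levels (chromosome 11, 78322968 to 78327781), rose by 0.51 (SE 0.0912, adjusted p = 0.00153). Aldoc had 48.2, 53.9 and 56.3 scaled FPKM with etelcalcetide and 32.2, 39.8 and 39.1 with RANKL. A further Ensembl ID that carries the symbol Aldoa had 0.734 to 1.85 scaled FPKM over the 6 libraries and was not counted as a member.

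Gapdh oxidises glyceraldehyde 3-phosphate and is often used as a reference gene. Gapdh (chromosome 6, 125161715 to 125166467) had 892, 893 and 904 scaled FPKM with etelcalcetide and 648, 747 and 715 with RANKL. The lowest etelcalcetide value was above the highest RANKL value. Gapdh rose by 0.35 on the log2 scale (SE 0.0656, limma adjusted p = 0.00198), a difference of 1.27 times in scaled FPKM. Near-identical copies of its transcript elsewhere in the genome, 48 in all, held 5.17% to 5.58% of the reads of Gapdh and copies, and with the copies added the log2 ratio was 0.35.

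The next enzymes, down to lactate, did not pass. Tpi1 (triose phosphate isomerase), Pgk1 (the first ATP-yielding kinase), Pgam1 (phosphoglycerate mutase) and Eno1 (enolase) had log2 fold changes of -0.04, -0.03, -0.08 and -0.05, and limma adjusted p of 0.692, 0.746, 0.378 and 0.525. Pgk1 (chromosome X, 106187100 to 106203699) had 877, 941 and 934 scaled FPKM with etelcalcetide and 879, 984 and 944 with RANKL, and these values interleaved. Reads of Eno1 are uncertain by 14.1% to 14.9%, the part that its copies Eno1b and Gm4735 held. Ldha, the subunit that makes lactate (chromosome 7, 46841475 to 46855627), had 856, 849 and 854 scaled FPKM with etelcalcetide and 716, 825 and 829 with RANKL. The Ldha values did not overlap, with the widest gap to RANKL replicate 1. The difference of 0.11 on the log2 scale (SE 0.0694) gave a limma adjusted p of 0.197, and 0.0443 with library totals (0.0443 to 0.462 over all alternatives). Gapdh and Pgk1 act at neighbouring steps, and whether their fold changes differ was not tested.

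RANKL replicate 1 was the lowest of the 3 RANKL libraries for 17 of 17 tested glycolysis genes, against 40.2% of all genes tested. Its median log2 deviation from the mean of the RANKL libraries was -0.13 over the glycolysis genes and -0.01 over all genes. It was also lowest for 5 of 7 pentose phosphate and 8 of 13 TCA members. Without that library the limma adjusted p was 0.00201 for Pfkl, 0.0031 for Aldoa, 0.00225 for Aldoc and 0.00207 for Gapdh, and the log2 fold changes were 0.29, 0.28, 0.42 and 0.29. The labels give this library the shortest exposure, and within the RANKL group the day and the library cannot be told apart.

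**Figure D2:**
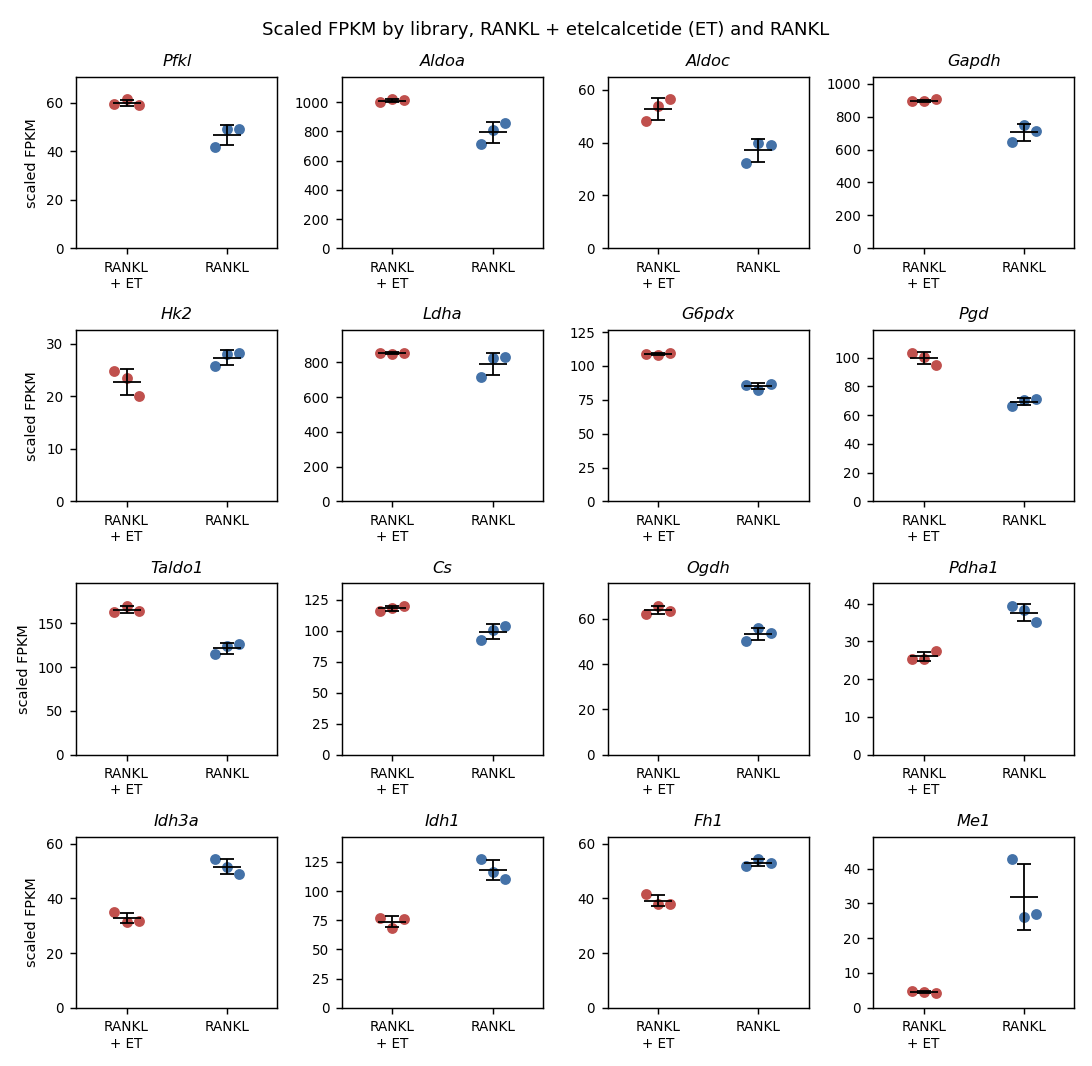
Scaled FPKM of 16 enzyme genes in each library (points), with the group mean and SD (bars), RANKL + etelcalcetide (ET) at the left and RANKL at the right of each panel; axes start at 0. In the Pfkl, Aldoa, Aldoc, Gapdh and Ldha panels RANKL replicate 1 is the lowest point, and in the Me1 panel it is the highest at 42.8.

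The proximal promoters of Gapdh, which was called, and of Pgk1, which was not, are shown because both encode abundant enzymes of neighbouring steps. The windows run from 250 bases before to 50 bases after the start of transcription, on the strand of the gene, from RefSeq on GRCm38.p6. Capitals mark ACGTG and GCGTG, the core letters of the hypoxia response element on either strand (CACGT and CACGC are their reverse complements).
Gapdh (chr6:125165724-125166023, minus strand): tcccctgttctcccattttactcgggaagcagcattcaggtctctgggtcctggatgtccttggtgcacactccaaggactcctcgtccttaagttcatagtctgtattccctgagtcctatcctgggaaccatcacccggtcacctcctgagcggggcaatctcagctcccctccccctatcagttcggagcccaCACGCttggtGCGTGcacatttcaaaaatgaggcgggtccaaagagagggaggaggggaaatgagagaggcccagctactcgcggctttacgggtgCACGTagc
Pgk1 (chrX:106186850-106187149, plus strand): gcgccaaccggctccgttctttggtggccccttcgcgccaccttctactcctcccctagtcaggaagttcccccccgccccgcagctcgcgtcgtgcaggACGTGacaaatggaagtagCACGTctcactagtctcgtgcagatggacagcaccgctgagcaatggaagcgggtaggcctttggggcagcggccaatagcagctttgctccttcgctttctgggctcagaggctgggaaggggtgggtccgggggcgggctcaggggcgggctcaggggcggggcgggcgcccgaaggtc
The Gapdh window held 1 ACGTG and 2 GCGTG, and the Pgk1 window 2 ACGTG and 0 GCGTG. Matches of letters are descriptions of these windows and not of binding.

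Of the 7 pentose phosphate genes 42.9% were called, all higher, against 53% called and 26% higher among all genes tested. The 3 called genes span both branches of the pathway, and the other 4 did not pass. The 7 genes took 0.219%, 0.211% and 0.210% of all reads in the etelcalcetide libraries and 0.158%, 0.164% and 0.171% in the RANKL libraries. In scaled FPKM they summed to 499, 496 and 483 with etelcalcetide and 379, 393 and 406 with RANKL. Both NADPH-producing dehydrogenases of the oxidative branch rose. G6pdx, the X-linked glucose 6-phosphate dehydrogenase that opens the pathway (chromosome X, 74409483 to 74429194), had 109, 108 and 109.8 scaled FPKM with etelcalcetide and 85.7, 82.4 and 86.8 with RANKL. Neither group spread by more than a few units, and the gap between them was several times wider. G6pdx rose by 0.36 on the log2 scale (SE 0.0454, limma adjusted p = 0.000245). Over 13.6% of its exon length it overlaps the antisense gene Ikbkg, whose reads cannot be told apart where the strand is unknown.

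Pgd, 6-phosphogluconate dehydrogenase, makes the second NADPH and releases CO2 (chromosome 4, 149149991 to 149166771). It had 103, 101 and 94.9 scaled FPKM with etelcalcetide, against 66.5, 70.3 and 71.2 with RANKL. The groups were well apart, and Pgd showed the largest rise among the 39 tested members at 0.52 (SE 0.0532, limma adjusted p = 6.85e-05), close to that of Aldoc. Taldo1, the transaldolase that links the sugar phosphates of this pathway back to glycolysis (chromosome 7, 141392199 to 141402968), had 164, 170.1 and 164 scaled FPKM with etelcalcetide and 115, 124 and 127 with RANKL. Taldo1 rose by 0.45 (SE 0.0534, limma adjusted p = 0.00017).

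The calls of G6pdx, Pgd and Taldo1 held in each of the leave-one-library-out fits, with limma adjusted p of at most 0.00223, 0.000574 and 0.00137. Tkt, the transketolase of the non-oxidative branch, had 79.8 ± 2.89 scaled FPKM with etelcalcetide and 75.6 ± 2.67 with RANKL and did not pass (limma adjusted p = 0.226, 0.033 with library totals and 0.033 to 0.525 over all alternatives). Pgls, the lactonase between both dehydrogenases, Rpia, the ribose phosphate isomerase, and Rpe, the epimerase, had log2 fold changes of -0.12, 0.11 and -0.15. Their values overlapped between the groups and their adjusted p were 0.349, 0.318 and 0.155. Rpe passed without RANKL replicate 3 (adjusted p = 0.026), as lower with etelcalcetide, and its alternatives ran from 0.026 to 0.491. Exon overlaps with other genes covered 20.6% of Pgls and 17.9% of Rpe.

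The promoter window of G6pdx is printed as an example. It held each of the motifs searched apart from CACGTG. So did a window of Pdhb, which was called lower, and a window of Hk1, which did not pass. Capitals mark, in order, the reverse complement of TGACNNNGC (the core of the antioxidant response element, bound by NRF2 with small Maf proteins), the reverse complement of GCGTG, and ACGTG.
G6pdx (chrX:74428831-74429130, minus strand): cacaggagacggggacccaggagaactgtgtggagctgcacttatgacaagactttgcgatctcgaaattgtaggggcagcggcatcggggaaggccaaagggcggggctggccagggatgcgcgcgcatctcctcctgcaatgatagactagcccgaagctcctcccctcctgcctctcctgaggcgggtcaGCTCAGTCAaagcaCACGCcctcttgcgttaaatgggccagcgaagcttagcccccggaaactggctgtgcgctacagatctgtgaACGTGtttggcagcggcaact
The window starts 250 bases before the RefSeq transcription start on the minus strand.

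Of the genes for pyruvate dehydrogenase and the TCA cycle, 76.9% were lower with etelcalcetide, against 27% of all genes tested. The 13 genes took 0.325%, 0.322% and 0.328% of all reads in the etelcalcetide libraries and 0.337%, 0.349% and 0.354% in the RANKL libraries. In scaled FPKM they summed to 770, 775 and 767 with etelcalcetide and 890, 923 and 927 with RANKL. Lower genes covered the entry of pyruvate, all 3 isocitrate dehydrogenase members, the succinyl-CoA, fumarate and malate steps. Counted among them are Idh1 and Mdh1, whose enzymes lie outside mitochondria and so outside the cycle itself. Citrate synthase and the first subunit of the 2-oxoglutarate dehydrogenase complex were higher.

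Pyruvate dehydrogenase turns pyruvate into acetyl-CoA. Pdha1, its catalytic and phosphorylated E1 alpha subunit (chromosome X, 160122209 to 160138413), had 25.4, 25.4 and 27.4 scaled FPKM with etelcalcetide and 39.5, 38.2 and 35.1 with RANKL. No value of the etelcalcetide group came near the RANKL group. Pdha1 fell by 0.53 on the log2 scale (SE 0.0619, limma adjusted p = 0.000154), with 16.1% of its exon length overlapping the antisense gene Map3k15. Pdhb, the E1 beta subunit, fell by 0.25 (limma adjusted p = 0.00601). Dlat, the E2 core, had 31.8, 30.3 and 31.6 scaled FPKM with etelcalcetide and 35.1, 34.6 and 35.3 with RANKL, a log2 fold change of -0.16 (limma adjusted p = 0.0193). The call of Dlat was lost with library totals (adjusted p = 0.213), without etelcalcetide replicate 2 (0.0951) and without etelcalcetide replicate 3 (0.0548), with 0.0138 to 0.213 over all alternatives.

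Cs, citrate synthase, joins acetyl-CoA to oxaloacetate and opens the cycle (chromosome 10, 128337734 to 128362479). It had 116, 118 and 120.0 scaled FPKM with etelcalcetide and 92.7, 101 and 104 with RANKL. The groups did not overlap, and Cs rose by 0.25 (SE 0.0551, limma adjusted p = 0.00462). Isocitrate dehydrogenase comes in an NAD-dependent mitochondrial form, of which Idh3a is the catalytic subunit, and in NADP-dependent forms in mitochondria (Idh2) and in the cytosol and peroxisomes (Idh1).

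Idh3a (chromosome 9, 54586334 to 54604661) had 34.9, 31.5 and 31.8 scaled FPKM with etelcalcetide and 54.4, 51.4 and 49.0 with RANKL, and fell by 0.66 on the log2 scale (SE 0.0617, limma adjusted p = 4.27e-05). Idh1 (chromosome 1, 65158616 to 65186500) had 77.2, 68.6 and 75.7 scaled FPKM with etelcalcetide and 128, 116 and 110.4 with RANKL, and fell by 0.68 (SE 0.0686, limma adjusted p = 6.68e-05). For both genes every etelcalcetide library was below every RANKL library by a wide margin. Idh2 had 94.6, 98.8 and 94.1 scaled FPKM with etelcalcetide and 105, 116 and 117 with RANKL, a smaller fall of 0.23 (limma adjusted p = 0.00832).

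The later steps of the cycle gave mixed calls within 1 enzyme complex. Ogdh, the E1 subunit of 2-oxoglutarate dehydrogenase (chromosome 11, 6291633 to 6356642), had 62.3, 65.8 and 63.7 scaled FPKM with etelcalcetide and 50.2, 55.8 and 53.9 with RANKL and rose by 0.26 (SE 0.0548, limma adjusted p = 0.00364). Dlst, the E2 subunit of the same complex, had 28.5 ± 0.620 scaled FPKM with etelcalcetide and 28.0 ± 1.04 with RANKL and did not pass (limma adjusted p = 0.71). Suclg1, the alpha subunit of succinyl-CoA ligase, fell by 0.25 (limma adjusted p = 0.00643).

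Fh1, fumarate hydratase (chromosome 1, 175600374 to 175625635), had 41.5, 38.1 and 37.8 scaled FPKM with etelcalcetide and 51.7, 54.4 and 52.9 with RANKL. Its groups were far apart, and Fh1 fell by 0.44 (SE 0.0544, limma adjusted p = 0.000212). Mdh1 and Mdh2, the cytosolic and mitochondrial malate dehydrogenases of the malate-aspartate shuttle and the cycle, fell by 0.41 and 0.24 (limma adjusted p = 0.000519 and 0.00858). The adjusted p of Mdh2 was 0.0516 with library totals and 0.00313 to 0.0516 over all alternatives. Among the 10 lower genes, Dlat alone lost its call when a library was left out. The share of reads from the mitochondrial genome, a general measure of mitochondrial RNA, was 3.38%, 3.0% and 3.14% with etelcalcetide and 4.10%, 3.89% and 3.15% with RANKL, which overlapped at replicate 3 of RANKL.

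**Figure D3:**
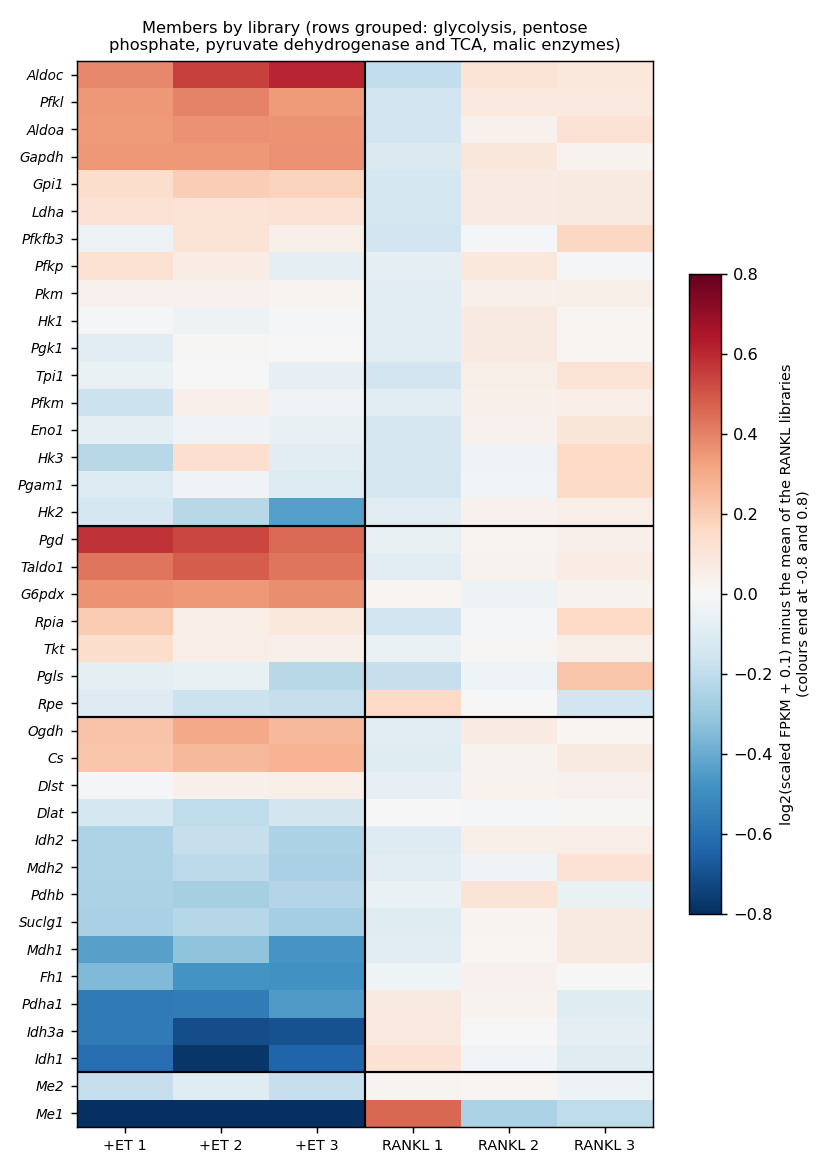
Each tested member by library, as log2(scaled FPKM + 0.1) minus the mean of the RANKL libraries, with red for higher and blue for lower and colours ending at -0.8 and 0.8. Rows are grouped by route, and the TCA block is mostly blue in all 3 etelcalcetide (ET) columns, while RANKL 1 is pale blue over the glycolysis block.

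Me1, the cytosolic malic enzyme that makes NADPH from malate, showed by far the largest difference of the members. It had 4.90, 4.40 and 4.34 scaled FPKM with etelcalcetide, against 42.8, 26.0 and 27.0 with RANKL (chromosome 9, 86581371 to 86695953). The RANKL libraries were uneven, with replicate 1 highest, but the lowest of them was several times the highest etelcalcetide value. Me1 averaged 4.55 ± 0.309 scaled FPKM with etelcalcetide and 31.9 ± 9.42 with RANKL, 7.02 times lower, and fell by 2.75 on the log2 scale (SE 0.168, limma adjusted p = 3.72e-06). Without RANKL replicate 1 it fell by 2.52. By fold change Me1 ranked 74 from the lowest among the 11120 genes tested. It had the fewest reads of the tested members, 236 in the lowest library. Me2, the mitochondrial NAD-dependent malic enzyme, had 20.6, 21.9 and 20.7 scaled FPKM with etelcalcetide and 23.8, 23.7 and 22.8 with RANKL. The groups did not overlap, but the difference was small (log2 fold change -0.15, SE 0.0536, limma adjusted p = 0.0366). The call of Me2 was lost on leaving out any single library other than RANKL replicate 3, with adjusted p of 0.112 without etelcalcetide replicate 1, 0.0524 without replicate 2, 0.126 without replicate 3, 0.0714 without RANKL replicate 1 and 0.104 without replicate 2. All alternatives for Me2 gave 0.0268 to 0.257. Me3, the remaining malic enzyme gene, had 0 reads in all libraries.

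Of the RefSeq windows of Me1, the gene with the largest difference, the one with a TGACNNNGC match is printed, with the match in capitals.
Me1 (chr9:86695865-86696164, minus strand): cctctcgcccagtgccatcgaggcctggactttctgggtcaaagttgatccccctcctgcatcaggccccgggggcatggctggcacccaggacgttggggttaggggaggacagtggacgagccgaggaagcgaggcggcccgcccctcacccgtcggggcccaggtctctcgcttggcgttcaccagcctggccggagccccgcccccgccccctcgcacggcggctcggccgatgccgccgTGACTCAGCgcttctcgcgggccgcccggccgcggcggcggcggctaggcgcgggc
This motif lies close to the transcription start, and the window held neither ACGTG nor GCGTG. The other Me1 window (chr9:86687228-86687527) held 1 ACGTG and no TGACNNNGC.

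Over all 38 members that had a RefSeq promoter window (Idh3a and Me2 had none), ACGTG was present in 44.7% of genes, against 21.8% of all 27025 genes with a window. GCGTG was present in 65.8% of members and 35.2% of all genes, and TGACNNNGC in 21.1% of members and 14.0% of all genes. CACGTG, the E-box bound by MYC and related factors, which contains ACGTG, was in 10.5% of members and 8.09% of all genes. Both strands were searched, and a gene with several windows counted once. By call, ACGTG was in 5 of 10 higher, 4 of 11 lower and 8 of 16 genes that did not pass, and TGACNNNGC was in 3 of 10 higher, 3 of 11 lower and 2 of 16 that did not pass. Members had more windows per gene (58 for 38 genes) than all genes (32851 for 27025), which gives more sequence to match. Per window, ACGTG was in 43.1% of member windows and 19.6% of all windows, GCGTG in 58.6% of member windows and 32.4% of all, and TGACNNNGC in 13.8% of member windows and 12.4% of all. The 27025 genes were taken whether or not they were expressed here, whereas nearly all members were. Base composition of promoters also differs between genes. The part of expression and of base composition in these shares was not tested.

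Because some members are alternative enzymes for the same reaction, the makeup of each isozyme pair or trio was also measured, as the share of their summed scaled FPKM. Me1 made up 17.8% ± 1.28 of malic enzyme RNA (Me1 plus Me2) with etelcalcetide and 56.9% ± 6.44 with RANKL (SD, n = 3 each). By scaled FPKM, Me2 was the more abundant of both in every etelcalcetide library, and Me1 in every RANKL library, where its share was 52.3% to 64.2%. In recovered reads, which weight isozymes by length, Me2 had more than Me1 in every RANKL library too. RANKL replicates 1 to 3 had 2445, 1535 and 1474 reads of Me1 and 2566, 2641 and 2355 of Me2. Pfkl made up 64.5% ± 0.765 of phosphofructokinase RNA with etelcalcetide and 58.8% ± 1.19 with RANKL, and Pfkp 25.7% ± 1.40 with etelcalcetide and 29.3% ± 1.09 with RANKL. Idh1 made up 43.5% ± 2.19 of the NADP-dependent isocitrate dehydrogenases with etelcalcetide and 51.2% ± 3.31 with RANKL, and Mdh1 51.2% ± 0.889 of malate dehydrogenases with etelcalcetide and 54.2% ± 0.761 with RANKL. Hk2 made up 35.9% ± 2.61 of hexokinase RNA with etelcalcetide and 39.8% ± 0.267 with RANKL, and Hk1 51.4% ± 2.23 with etelcalcetide and 48.0% ± 1.01 with RANKL. These 7 shares did not overlap between groups, and each reached the smallest two-sided p that an exact permutation test of 3 against 3 allows, 0.1 (0.129 adjusted over 9 shares). Shares within a family are parts of the same sum and depend on each other. Pfkp and Hk1 themselves did not pass the limma test (adjusted p = 0.697 and 0.8). The shares of Hk3 and Aldoc overlapped.

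**Figure D4:**
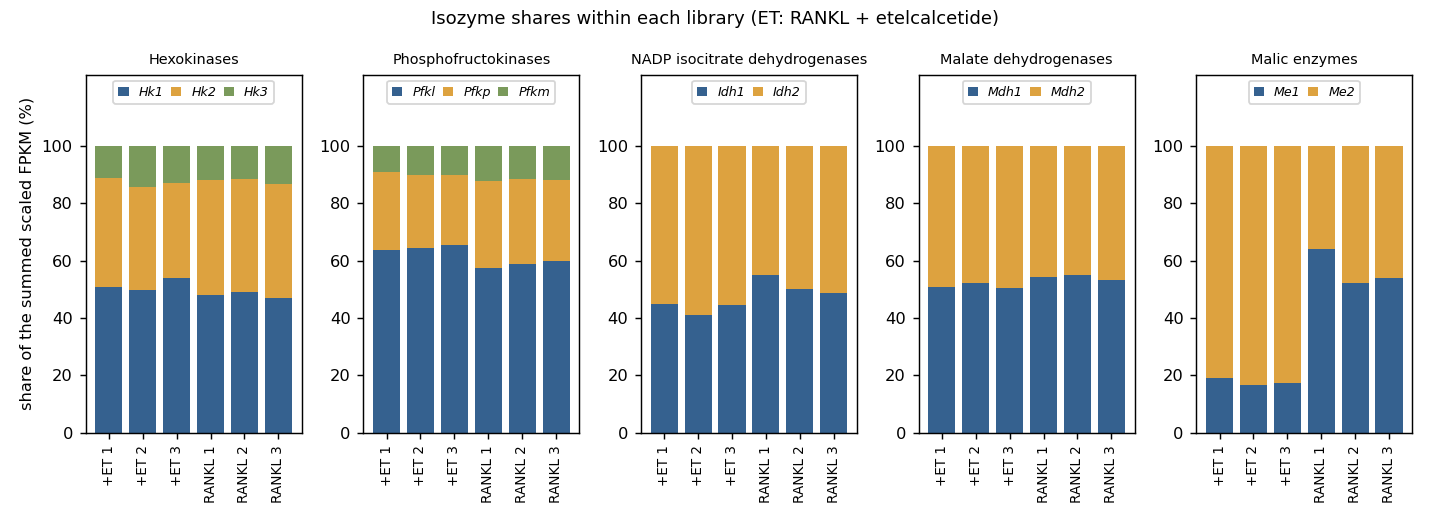
Share of each isozyme in the summed scaled FPKM of its family, in percent, per library, with RANKL + etelcalcetide (ET) libraries at the left of RANKL libraries in each panel. The Me1 segment fills 17.8% on average with etelcalcetide and 56.9% with RANKL, while other families differ by less than 8 percentage points.

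Genes around the 3 routes were counted in the same fit from lists of their transporters, further subunits and regulators. Glucose and lactate transporters moved in both directions, with 4 higher and 3 lower of 9 tested (44.4% and 33.3%, against 26% and 27% of all genes tested). Slc2a6, a glucose transporter family member of lysosomes in macrophages, had 39.7, 39.3 and 40.4 scaled FPKM with etelcalcetide and 5.87, 5.66 and 7.47 with RANKL. It rose by 2.64 on the log2 scale (SE 0.0982, limma adjusted p = 2.16e-07), more than any of the 39 tested members in size other than Me1. Slc2a1, the main glucose importer GLUT1, rose by 0.41 (limma adjusted p = 0.00398), with 63.7, 58.3 and 52.6 scaled FPKM with etelcalcetide and 39.1, 47.4 and 44.6 with RANKL. Slc16a1, the lactate and pyruvate carrier MCT1, fell by 0.64 (limma adjusted p = 6.11e-05), while Bsg, its chaperone basigin, rose by 0.51 (limma adjusted p = 0.000498). Slc16a3, the lactate exporter MCT4, passed marginally (log2 fold change 0.27, limma adjusted p = 0.0474) and lost its call without etelcalcetide replicate 1 (0.146) or replicate 2 (0.129) and without RANKL replicate 1 (0.134) or replicate 2 (0.0524). Its adjusted p was 0.0144 to 0.146 over all alternatives.

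Of 13 further glycolysis genes tested, 4 were higher and 4 lower, 30.8% each way, which is near the 26% and 27% of all genes tested. Pgam2, the muscle-type phosphoglycerate mutase, had 6.21, 8.80 and 12.2 scaled FPKM with etelcalcetide and 3.20, 2.56 and 1.68 with RANKL and rose by 1.82 (limma adjusted p = 0.000543). Eno3, the muscle-type enolase, had 38.7, 55.3 and 46.9 scaled FPKM with etelcalcetide and 84.2, 91.7 and 107 with RANKL and fell by 1.01 (limma adjusted p = 0.000243). The muscle-type isozymes of neighbouring steps thus moved in opposite directions, whereas the main forms Pgam1 and Eno1 did not pass. Among 7 further pentose phosphate genes 3 were higher and 2 lower (42.9% and 28.6%). The lower ones were Prps1 and Prps2, the ribose phosphate pyrophosphokinases that take ribose 5-phosphate into nucleotide synthesis, with log2 fold changes of -0.47 and -0.79 (limma adjusted p = 0.000177 and 3.54e-05). H6pd, the counterpart of G6pdx in the endoplasmic reticulum, rose by 0.38 (limma adjusted p = 0.00298).

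At the entry of pyruvate, 0 of 11 genes were higher and 8 lower, against 26% and 27% of all genes tested. Dld, the E3 subunit that pyruvate and 2-oxoglutarate dehydrogenase share, had 29.0, 26.4 and 25.1 scaled FPKM with etelcalcetide and 53.0, 44.6 and 40.0 with RANKL and fell by 0.76 (limma adjusted p = 0.000286). Lower genes included both arms of the control of pyruvate dehydrogenase. The phosphatases Pdp1 and Pdp2, which activate it, had log2 fold changes of -0.85 and -0.43 (limma adjusted p = 0.000241 and 0.00159), and the kinase Pdk1, which inactivates it, had -0.32 (adjusted p = 0.00198). Pdk4 had 0 reads in all libraries.

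Of 11 further TCA genes 0 were higher and 8 lower (72.7%, against 26% higher and 27% lower among all genes tested). Sdha, the flavoprotein of succinate dehydrogenase, fell by 0.40, Suclg2, the GTP-specific succinyl-CoA ligase subunit, by 0.55, and the NAD-dependent isocitrate dehydrogenase subunits Idh3b and Idh3g by 0.33 and 0.30 (limma adjusted p at most 0.00199). Side routes and carriers gave 4 higher and 5 lower of 13 (30.8% and 38.5%). The largest difference was in Acod1, the mitochondrial enzyme that draws cis-aconitate from the cycle to make itaconate in activated macrophages, with 19.6, 20.3 and 20.9 scaled FPKM with etelcalcetide and 2.18, 2.86 and 2.17 with RANKL. Acod1 rose by 3.03 on the log2 scale (SE 0.108, limma adjusted p = 2.03e-07). Slc25a10, the dicarboxylate carrier that exports malate, rose by 0.54 (limma adjusted p = 0.000153), and Glud1, glutamate dehydrogenase, fell by 0.33 (limma adjusted p = 0.000367).

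**Figure D5:**
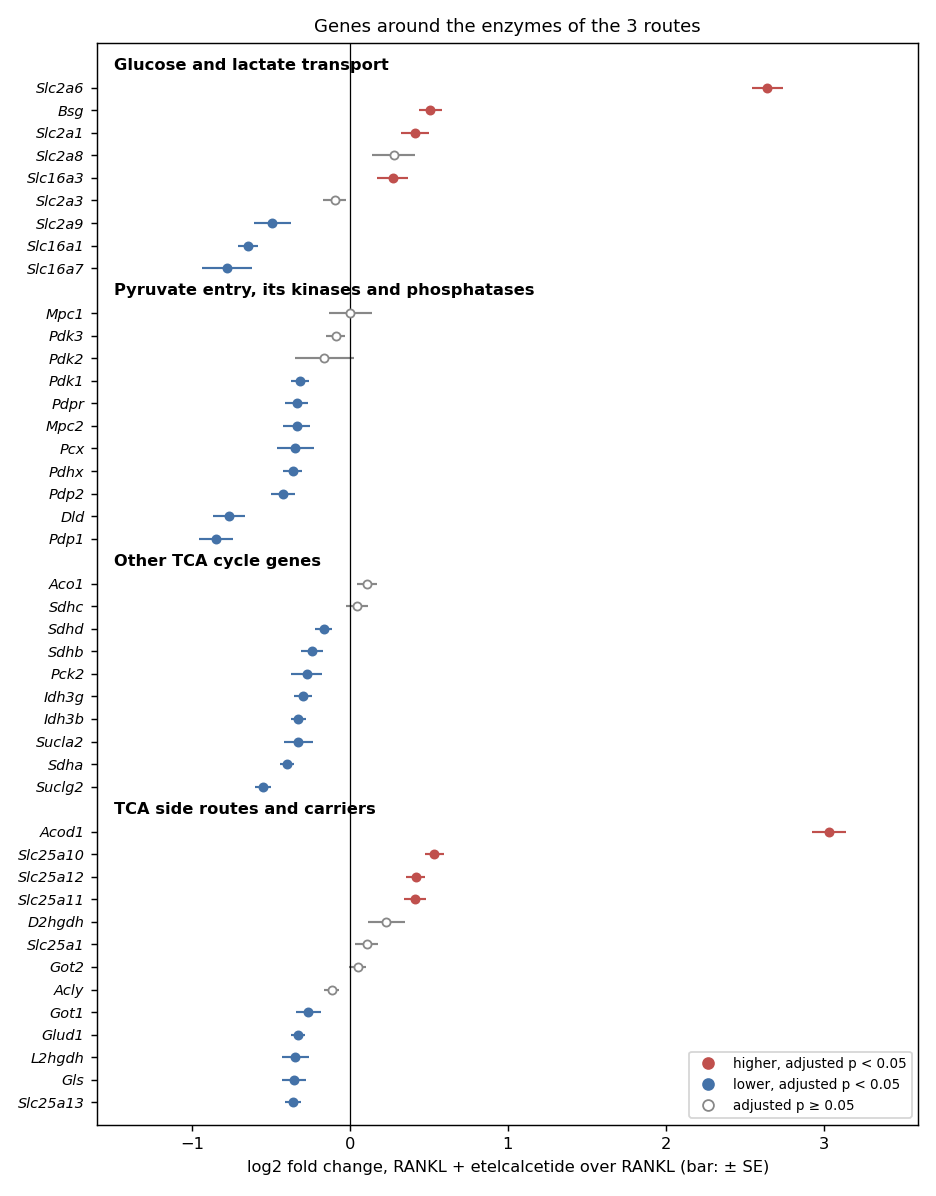
Log2 fold change, RANKL + etelcalcetide over RANKL, with SE bars, of tested genes from 4 lists around the enzymes; filled points passed the limma test. Acod1 at 3.03 and Slc2a6 at 2.64 lie far right, and no filled point of the pyruvate entry and further TCA lists lies right of 0.

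Regulators known to act on these genes gave 8 higher and 4 lower of 16 (50% and 25%, against 26% and 27% of all genes tested). Myc, a transcription factor that drives glycolytic and nucleotide genes in growing cells, had 1.32, 1.43 and 1.11 scaled FPKM with etelcalcetide and 3.62, 5.35 and 4.95 with RANKL and fell by 1.76 (limma adjusted p = 3.82e-05). Hif1a, the oxygen-regulated factor for glycolytic enzymes, fell by 0.54 (limma adjusted p = 0.00551), Epas1, its relative HIF-2 alpha, rose by 1.40 (adjusted p = 0.000528) at levels under 1 scaled FPKM, and Vhl, which marks both proteins for degradation, rose by 0.60 (adjusted p = 0.000136). Txnip, which lowers glucose uptake, had 258 ± 32.2 scaled FPKM with etelcalcetide and 171 ± 8.33 with RANKL (limma adjusted p = 0.000679). Of 14 HIF target genes outside glycolysis 2 were higher and 5 lower, 50% called against 53% of all genes tested, a share near the background. Among them Vegfa, Adm and Bnip3 had log2 fold changes of -0.89, -1.80 and -0.45, and Anxa2 of 0.30 (limma adjusted p = 2.31e-05, 0.000795, 0.00249 and 0.00252). Of 10 NRF2 targets outside these routes 6 were higher and 1 was lower (60% and 10%), with Srxn1, a sulfiredoxin, at 0.55 and Gsr, glutathione reductase, which uses NADPH, at 0.24 (limma adjusted p = 0.000358 and 0.00366). RNA levels of regulators do not measure their activity.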

How the data were processed

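The authors deposited FPKM per Ensembl gene and library. The submitters' processing notes list HISAT2 2.1.0, featureCounts 1.6.0, Trimmomatic 0.38, DESeq2 1.22.1, CASAVA, MultiQC and FastQC, without saying what each did, and name GRCh38, a human build. Each of the 55536 IDs was found in GENCODE M21 for mouse, so GRCm38 coordinates (1-based) are printed. Strandedness and library selection are not given in the sources used here. FPKM multiplied by exon length gave whole reads for 100% of values (tolerance 0.01 reads), from which depths and trimmed-mean-of-M-values factors were taken.

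Genes with at least 0.5 FPKM and 10 reads in 3 libraries were tested with limma 3.58.1 on log2(scaled FPKM + 0.1), with a single group term and a prior variance that follows the mean, and p-values were adjusted over all 11120 genes. Fold changes on that scale understate those of low genes. The steps were tested on simulated data. Copies of members were found with BLAST 2.17.0 (at least 97% identity over 150 bases).

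The members, the lists around them and the marker lists were chosen with earlier results of these data known. Named genes are all members, up to 4 genes with the smallest adjusted p from each list around them, Slc2a1, Slc16a3, Hif1a, Pdk1, Pdk4, Acod1, Sdha and Myc whatever their values, and the markers Acp5, Ctsk and Adgre1. The values of 1 further gene under this rule are not reported here, nor plotted. The markers Mmp9, Dcstamp, Itgb3, Ccr7, Itgax, Lyz2, Csf1r, Cd68 and Ptprc were named after their values were seen. So were Me3, markers at 0 and overlapping genes or copies. Same-numbered replicates did not deviate together over all genes (correlations 0.0744, -0.0188 and -0.0299), so the numbers were not taken as pairs. Within groups, replicates differed beyond sampling noise.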

Additional observations from a re-analysis of the deposited data

How the results depend on the processing

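The count of members called was 23 and ranged over 20 to 23 under other scalings, filters, pseudocounts, variance priors, voom weights on the recovered reads and the replicate block, and over 19 to 23 when single libraries were left out. Over all genes the count was 5893, with 5357 to 6135 and 4687 to 6063 under the same alternatives. The TCA genes gave 8 to 10 lower and 2 higher under all of them, and the pentose phosphate genes 3 or 4 higher. Higher glycolysis genes numbered 4 to 6, against 5 in the full set. No called member reversed its direction. Library totals moved the median of all genes by 0.0777 on the log2 scale. Hk2, the single lower glycolysis gene, was not called with library totals, without a filter or with a constant prior variance (0 lower genes), and leaving out libraries gave 0 to 1. The malic enzymes gave 1 lower gene in place of 2 with library totals, a constant prior variance and the replicate block, and 1 to 2 when libraries were left out. The lower pentose phosphate genes, 0 in the full set, were 0 to 1 when libraries were left out. In shares of recovered reads in place of scaled FPKM, which weights isozymes by length, the difference in the Pfkp share was -5.04 percentage points against -3.66, and in the Me1 share -31.1 against -39.1. The cause was not tested for the other changes.

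The replicate block is also a term for the labelled day. With the replicate block 22 members and 5709 of all genes were called, and Me2 lost its call (limma adjusted p = 0.0647). Over the lists around the members 63 genes were called with the block and 70 without it. A sign-flip test within the pairing gave 0.25 for shares that moved the same way in every pair, the smallest p it can give with 3 pairs. It was given no weight, since the numbers did not pair the libraries.

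At 3 libraries a group, differences near 0.15 on the log2 scale (Gpi1, Dlat, Me2) sat at the edge of the test. The 3 counts taken as a floor, and sampling of reads, cover counting error only. Me1 in the etelcalcetide group rests on 236 to 300 reads a library, the other tested members on more. RNA levels measure neither enzyme amount nor flux.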
